A study of Homo sapiens with 6 samples.

Results

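Of the zinc finger genes that carry a ZNF symbol, 125 were well counted in these Huh-7 cells. A gene was taken when its symbol was ZNF followed by digits and an optional letter and its mean over the 6 samples was 200 or more raw counts. Of the 20332 genes in the table, 509 had such a symbol, 31 of these had no count in any sample, and 125 met the mean of 200. The genes were thus chosen by their mean raw count over both groups, and their level is a description. Just inside the limit lay ZNF227 with a mean of 201.5 counts, ZNF92 with 206.8 and ZNF195 with 208.2, and just outside lay ZNF324 with 197.2, ZNF692 with 191.2 and ZNF608 with 188.8.

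The study asked which genes respond to RAC3, a small GTPase of the Rac family, in hepatocellular carcinoma. Huh-7, an established human liver cancer line, was sequenced after lentiviral stable overexpression of RAC3 (RAC3 overexpression, 3 samples) and as wild-type negative control cells (negative control, 3 samples). The methods call the RNA samples independent but do not say whether they came from separate infections or clones, nor what the control cells carry, so p-values measure only the spread between these samples. For RAC3 samples 2 and 3 the genotype field reads RAC4 and RAC5 overexpression where the titles read RAC3, and the titles were followed. Counts with and without these 2 samples are given below.

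The samples held 13855762 to 18199888 counts on genes. RAC3 itself had 33.3 ± 2.16 CPM (reads scaled to a common library size after edgeR's TMM method, SD, n = 3) in the negative controls and 232.6 ± 7.11 CPM with RAC3 overexpression, and the 3 RAC3 samples had 232.6, 239.6 and 225.4 CPM, with no overlap with the controls. All 9 hepatocyte markers were counted, with summed levels of 2492 to 2617 FPKM in the controls and 2447 to 2787 FPKM in the RAC3 samples. Summed leukocyte markers lay at 25.2 to 30.9 and 21.9 to 24.4 FPKM, nearly all of it CD14, with PTPRC at 0.12 FPKM or less. Summed fibroblast markers lay at 19.9 to 21.8 FPKM in the controls and 23.1 to 24.05 FPKM in the RAC3 samples, from the 2 collagen genes, with DCN at 0.285 FPKM or less. Endothelial markers summed to 1.22 FPKM or less, with CDH5 at 0.036 FPKM or less. The part of the small fibroblast marker difference in the values below was not tested. With 3 samples in each group an exact permutation test of a single gene cannot fall below p = 0.10, so tests come from the fit across all genes.

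C2H2 zinc fingers are small folds held by a zinc ion between cysteine and histidine pairs, and proteins that string many of them together read DNA, and sometimes RNA, a few bases per finger. Many ZNF proteins carry a KRAB domain in front of the fingers, which recruits the corepressor TRIM28 and with it the histone methyltransferase SETDB1 and HP1 proteins, and such proteins are known for silencing transposable elements. Their genes arose by repeated duplication and lie in large clusters on chromosome 19. Other proteins with a ZNF symbol work outside this scheme, in splicing, ribosome assembly, the spindle or SUMO conjugation.

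In the GENCODE 29 annotation all 125 genes had a protein, and 123 of these held at least 1 finger by the C2H2 pattern, with a median of 9 and at most 33, in ZNF462. A KRAB A box was found by sequence pattern in 36 of the 125 proteins. Chromosome 19 held 39 of the genes, chromosomes 7 and 16 held 12 each and chromosome 1 held 8.

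The genes called below differed in the bases that spell the same fold, so a finger with the linker that follows it is printed for 7 of them. Each line is 78 bases of coding sequence on GRCh38, 5′ to 3′ on the strand of the gene, from the first cysteine codon of a finger to the end of the linker. The capitals mark the 15 bases of the linker, which spell threonine, glycine, glutamate, lysine or arginine, and proline.
ZNF587B (chr19:57841656-57841733, plus strand, higher with RAC3): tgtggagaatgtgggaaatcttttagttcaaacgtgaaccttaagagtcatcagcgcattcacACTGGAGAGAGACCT
ZNF714 (chr19:21117187-21117264, plus strand, higher): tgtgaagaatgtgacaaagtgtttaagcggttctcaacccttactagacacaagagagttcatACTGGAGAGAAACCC
ZNF776 (chr19:57753926-57754003, plus strand, higher): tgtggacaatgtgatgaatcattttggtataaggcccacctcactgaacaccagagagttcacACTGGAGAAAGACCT
ZNF316 (chr7:6652719-6652796, plus strand, lower with RAC3): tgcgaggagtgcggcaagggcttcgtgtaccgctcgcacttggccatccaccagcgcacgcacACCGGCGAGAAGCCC
ZNF358 (chr19:7520035-7520112, plus strand, lower): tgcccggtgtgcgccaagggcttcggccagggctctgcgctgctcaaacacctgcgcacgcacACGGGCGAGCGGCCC
ZNF672 (chr1:248847959-248848036, plus strand, lower): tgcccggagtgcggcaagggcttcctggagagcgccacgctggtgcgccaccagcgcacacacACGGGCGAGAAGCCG
ZNF768 (chr16:30525276-30525353, minus strand, lower): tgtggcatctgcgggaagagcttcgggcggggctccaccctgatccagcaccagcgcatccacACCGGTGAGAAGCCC
Genes on chromosomes 8 and 18 were left out of this comparison. Over the remaining 66 genes with such a linked finger inside 1 exon, the median number of G or C bases in the linker was taken. It was 8 in the 9 genes that rose, 12 in the 9 that fell and 8 in the 48 that were not called. The median GC content of the stretch was 39.7% for the 9 that rose, 66.7% for the 9 that fell and 47.4% for the 48 that were not called.

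The ZNF genes changed little and in both directions with RAC3 overexpression. At an adjusted p below 0.05 (edgeR's quasi-likelihood F test, with the Benjamini-Hochberg method over all genes tested), 21 of the 125 were called higher and 16 lower, which is 29.6%. Among all 12941 genes tested 28.5% were called, 13.3% higher and 15.3% lower. Among the genes with a mean of 200 or more counts 36% were called, 17.1% higher and 18.9% lower. The ZNF share, 16.8% higher and 12.8% lower, was thus near that of all genes tested. Against genes of like counts it was near for the higher calls and below for the lower calls. With library size alone as the scaling, 39 of the 125 were called higher and 11 lower. The share of all genes called with that scaling is not given here, so these 2 numbers are not read as a result about ZNF genes. In RNA from bulk cultures, fewer cells that express a gene and less RNA per cell cannot be told apart. At the thresholds of the study, a fold change above 1.5 and an unadjusted p below 0.05, none of the 125 was higher by edgeR, DESeq2 or limma-voom, 1 was by limma on FPKM, and only ZNF395 was lower by edgeR. Of all genes tested 4.68% passed these thresholds, 1.68% higher and 2.99% lower, and of those with a mean of 200 or more counts 1.64%, 0.412% higher and 1.23% lower. The median log2 fold change of the 125 was 0.06, against 0.00 for all genes tested, and values ran from -0.91 to 0.53. The size was under 0.2 on the log2 scale for 72 genes and over 0.4 for 8. In 56 of the 125 (44.8%) the 3 RAC3 samples did not overlap the 3 controls, 36 above and 20 below. The groups did not overlap in 42.5% of all genes tested, 20.9% above and 21.6% below, and in 49.6% of those with a mean of 200 or more counts, 24.9% above and 24.6% below.

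**Figure D1:**
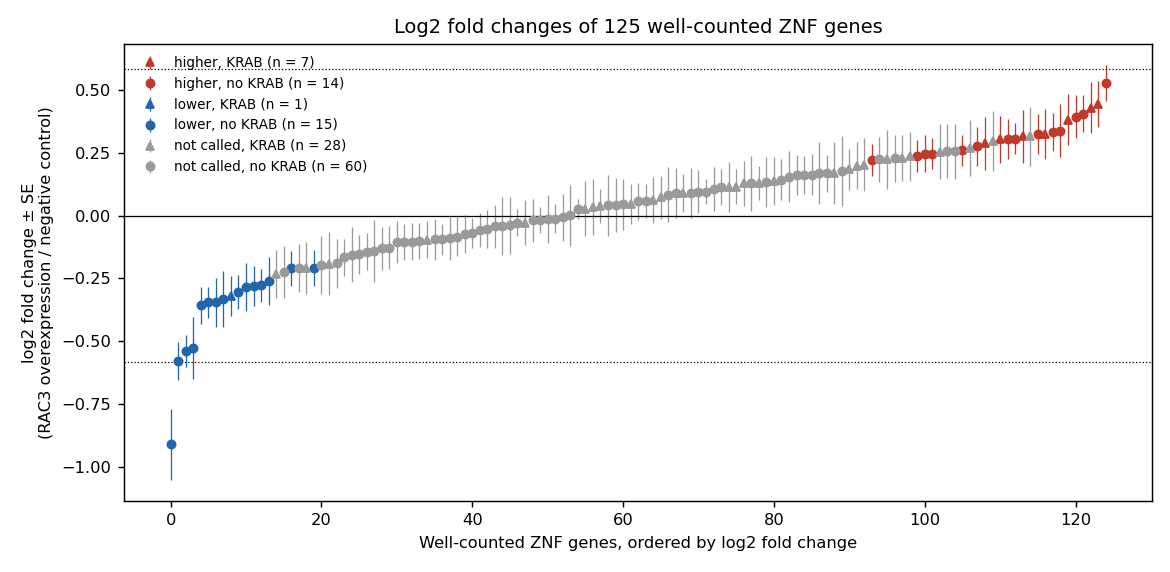
Each of the 125 ZNF genes is a point at its log2 fold change (y axis, RAC3 overexpression over negative control, bars are the standard error), ordered along the x axis. Triangles carry a KRAB domain, red and blue points are the 21 called higher and the 16 called lower, and the dotted lines mark a fold change of 1.5, which only ZNF395 passed.

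Among the genes that rose, ZNF518A (ENSG00000177853, chromosome 10 from 96129715 to 96205288 on GRCh38), a protein of 5 fingers, had the largest log2 fold change. It had 41.3, 48.3 and 46.5 CPM in the negative controls 1, 2 and 3 and 71.7, 62.1 and 62.4 CPM in the RAC3 samples 1, 2 and 3. All RAC3 samples lay above all controls, and RAC3 sample 1 was the highest. The log2 fold change was 0.53 (SE 0.0726, adjusted p = 2.68e-05 by edgeR's quasi-likelihood F test, Benjamini-Hochberg adjusted).
ZNF714, a gene of the large zinc finger cluster near the centromere of chromosome 19, had 28.2, 29.8 and 32.6 CPM in the controls and 39.6, 41.2 and 39.5 CPM in the RAC3 samples. The groups were apart and the RAC3 samples lay close together, with a log2 fold change of 0.41 (SE 0.0735).
ZNF587B, a KRAB protein of 15 fingers, had 17.7, 17.3 and 20.8 CPM in the controls and 24.1, 26.2 and 25.9 CPM in the RAC3 samples. Its log2 fold change was 0.44 (SE 0.0922), and 17.3% of its 75-base windows were shared with other genes. Reads from those windows are uncertain, and their share of its counts is not known.
ZNF776, another KRAB gene in the last cluster of the same chromosome, had 13.1, 12.9 and 13.9 CPM in the controls and 16.8, 17.9 and 19.2 CPM in the RAC3 samples, again without overlap, and a log2 fold change of 0.43 (SE 0.101).
ZNF367, which has 2 fingers, had 30.2, 31.6 and 34.5 CPM in the controls and 38.3, 40.3 and 43.1 CPM in the RAC3 samples, a log2 fold change of 0.33.

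ZNF395 (ENSG00000186918, chromosome 8 from 28345585 to 28402701), a protein that binds the promoter of the Huntington disease gene and is known to be induced by hypoxia, fell the most. It had 79.95, 53.5 and 44.1 CPM in the negative controls and 28.8, 34.6 and 30.4 CPM in the RAC3 samples. Every RAC3 sample lay below every control, and control 1 stood well above the other two. The log2 fold change was -0.91 (SE 0.142, adjusted p = 9.84e-05 by edgeR's quasi-likelihood F test, Benjamini-Hochberg adjusted), and it lay between -1.10 and -0.64 when each sample in turn was left out. ZNF395 shares 41.4% of its 75-base windows with the overlapping gene FBXO16, which had a log2 fold change of -0.51 (adjusted p = 0.0644 by the same edgeR test), so reads of both genes cannot be told apart in that part.
ZNF496 (ENSG00000162714, chromosome 1 from 247297412 to 247331846), which binds the histone methyltransferase NSD1, had 60.1, 54.4 and 52.9 CPM in the controls and 33.4, 39.7 and 39.2 CPM in the RAC3 samples, a log2 fold change of -0.58 (SE 0.0756) and just short of 1.5-fold.
ZNF358 (ENSG00000198816, chromosome 19 from 7515292 to 7521026) had 59.7, 55.6 and 61.3 CPM in the controls and 39.1, 42.6 and 40.0 CPM in the RAC3 samples. The groups were far apart against their spread, the log2 fold change was -0.54 (SE 0.0654), and the adjusted p of 6.93e-06 (edgeR's quasi-likelihood F test, Benjamini-Hochberg adjusted) was the smallest among the 125. Of its windows 18.5% were shared with a same-strand gene.
ZNF581 had 25.1, 18.6 and 20.5 CPM in the controls and 12.3, 16.8 and 15.5 CPM in the RAC3 samples, a log2 fold change of -0.53 (SE 0.123), and it shares 14.4% of its windows with its neighbour ZNF580.
ZNF768, a regulator that binds an ancient class of interspersed repeats, had 99.2, 101.3 and 91.8 CPM in the controls and 71.0, 81.7 and 77.0 CPM in the RAC3 samples, a log2 fold change of -0.35 (SE 0.0611). In all 5 of these genes RAC3 sample 1 gave the lowest value.

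**Figure D2:**
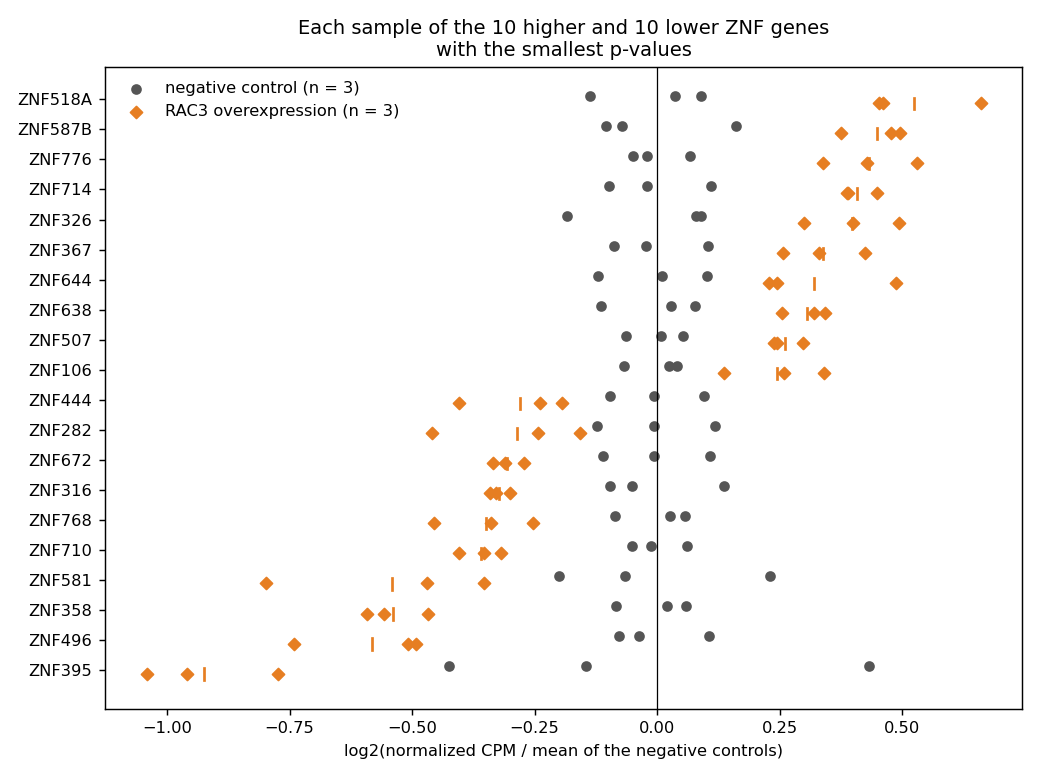
Each row is 1 of the 10 higher and 10 lower ZNF genes with the smallest p-values and groups that do not overlap. The x axis is the log2 ratio of a sample's CPM to the mean of the negative controls, circles are controls, diamonds are RAC3 samples and the vertical tick is the mean of the RAC3 samples. The wide spread of the ZNF395 controls, 44.1 to 79.95 CPM, stands out from the other genes.

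Of the called genes 10 kept their call in every one of the 17 other fits set up beside this one, ZNF367, ZNF518A, ZNF587B, ZNF638 and ZNF714 higher and ZNF358, ZNF395, ZNF496, ZNF581 and ZNF768 lower. Without the RAC3 samples 2 and 3, a fit added after the data were seen, ZNF367 (0.25) and ZNF587B (0.37) lost their calls and 8 of the 10 were still called.

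Of all genes with a mean of 200 or more counts 17.1% were called higher and 18.9% lower. Of those outside the family with a GC content under 45.0% these shares were 34.6% and 3.50%. Of the 25 KRAB genes under that GC content 6 were called higher (24%) and none lower. Of all 36 KRAB genes, 7 were called higher (19.4%) and 1 lower (2.78%). Their number called higher was 4 without control 2, RAC3 sample 1 or RAC3 sample 3, 3 by DESeq2 and 16 with library size alone. The shares of all genes called in these fits are not given here, so these numbers have no background beside them. The 7 were ZNF587B and ZNF776 and, named after their values were seen, ZNF431, ZNF91, ZNF721, ZNF28 and ZNF738, with log2 fold changes from 0.29 to 0.44. ZNF91, known to repress SVA retrotransposons in the human genome, rose from 13.8 ± 0.669 to 17.3 ± 0.574 CPM (SD, n = 3), a log2 fold change of 0.33. The 1 gene called lower among these 36 was ZNF316. It had 35.1, 29.9 and 30.8 CPM in the controls and 25.2, 25.4 and 25.96 CPM in the RAC3 samples. Its log2 fold change of -0.32 was -0.07 with the GC trend of the libraries removed. The KRAB A box was searched as 2 conserved stretches of residues. With the first stretch alone as a looser pattern, 45 genes were KRAB, with 7 called higher (15.6%) and 4 lower (8.89%). These 4 were ZNF316, ZNF496, ZNF282 and, named after its values were seen, ZNF777. The median log2 fold change of the 45 was 0.12. Log2 fold changes of the KRAB genes had their median at 0.15, and 30 of 36 lay above 0. Of the 89 other genes 14 were called higher and 15 lower, with a median of -0.01 and 42 above 0.
Among the 196 tested KRAB genes with a mean under 200 counts the median was 0.17 on the log2 scale. Of these 13 were called higher (6.63%) and 1 lower (0.51%). Of the 104 other tested ZNF genes under 200 counts 5.77% were called higher and 6.73% lower. All genes tested gave 13.3% and 15.3%, but 8730 of these 12941 had a mean of 200 or more counts. Calls were more frequent among those 8730, at 36% against 28.5% of all genes tested, so the 13.3% and 15.3% are not a background of like counts. None of the 36 well counted KRAB genes passed a fold change of 1.5 at an unadjusted p below 0.05. Of the 196, 6 did so upwards and 1 downwards, with log2 fold changes of up to 1.02. Of the 104 other ZNF genes under 200 counts 2 did so upwards and 4 downwards. Of all genes tested 1.68% passed upwards and 2.99% downwards, against 0.412% and 1.23% of those with a mean of 200 or more counts. Genes with a mean under 200 counts thus passed more often than all genes tested. None of these shares is a background of like counts for the 196 and the 104, and no excess among them is read from these numbers.

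By position, the median log2 fold change was 0.16 for the 39 genes on chromosome 19, of which 10 were called higher (25.6%) and 6 lower (15.4%), and 0.03 for the 86 elsewhere, with 11 higher (12.8%) and 10 lower (11.6%), against 17.1% and 18.9% of all genes with a mean of 200 or more counts. Of the 39, 3 were called higher and 2 lower with the GC trend of the libraries removed. The 21 KRAB genes on chromosome 19 had a median of 0.23, and 20 of them lay above 0. With the GC trend of the libraries removed their median was 0.13, and 17 lay above 0. Their median GC content was 42.5%. There were 3196 genes outside the family with a mean of 200 or more counts and a GC content under 45.0%. Of these 80.9% lay above 0 before this removal and 1624 after it, with a median of 0.0027 then. The 15 KRAB genes on other chromosomes had a median of -0.0036 after the removal, with 7 above 0. Genes less than 2 Mb apart were taken as a run. The run from 19668796 to 23395560 (GRCh38) held ZNF101, ZNF506, ZNF430, ZNF714, ZNF431, ZNF738 and ZNF91, all 7 with a log2 fold change above 0, a median of 0.30 and 4 called higher. The run from 52297177 to 53458261 held ZNF480, ZNF28, ZNF468 and ZNF761, all 4 above 0 with a median of 0.27 and 1 called. ZNF468 shares 99.2% of its windows with ZNF320, so how reads were split between the 2 genes is uncertain. The run from 55576770 to 58213562 was mixed, since 2 of its 12 genes were called higher, ZNF776 and ZNF587B, and 4 lower, with a median of -0.06.

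The direction of the calls divided along the base composition of the transcripts. The median GC content of the longest coding transcript was 37.7% for the 21 genes that rose (34.9% to 61.1%) and 62.4% for the 16 that fell (53.5% to 70.3%), and at the third codon position it was 37.7% and 79.3%. Of the 62 genes under the median of 45.0%, 19 were called higher (30.6%), none was lower by edgeR, DESeq2 or limma-voom even at an unadjusted p below 0.05, and 54 had a log2 fold change above 0. Of the 63 genes at or over it, 2 were called higher (3.17%), ZNF587B and ZNF335, and 16 lower (25.4%), and 18 lay above 0. Across the 125 genes, which are not independent replicates and share the same 6 libraries, Spearman's rho between GC content and log2 fold change was -0.71.
Genes outside the family moved the same way with GC content. Among 3196 other genes with a mean of 200 or more counts and a GC content under 45.0% the median log2 fold change was 0.13 with 80.9% above 0, 34.6% called higher and 3.50% lower. Among 5387 at or over it the median was -0.07 with 33.4% above 0, 6.79% called higher and 28.1% lower, so the shares of the ZNF genes lay near those of other genes of like composition. Spearman's rho over these 8583 genes was -0.61.

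**Figure D3:**
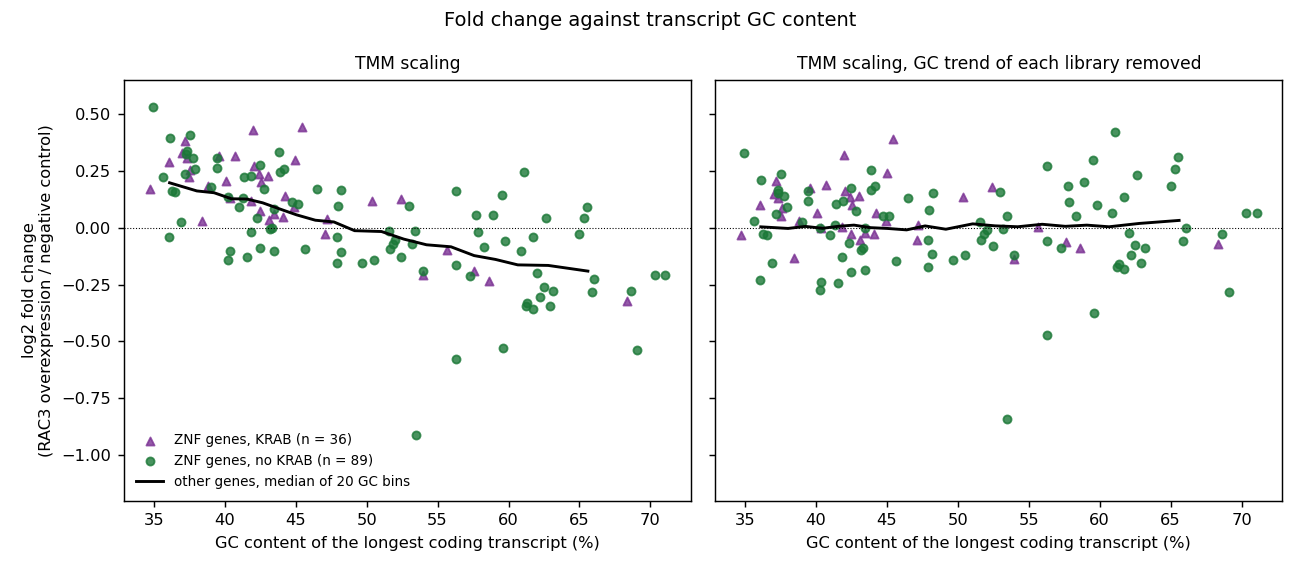
The log2 fold change of each ZNF gene (y axis) is plotted against the GC content of its longest coding transcript in percent (x axis), with triangles for KRAB genes and circles for the others. The black line is the median of other genes with a mean of 200 or more counts in 20 bins of GC content. On the left the ZNF genes fall along the sloping line (rho -0.71), and on the right, after the trend of each library with GC content was removed, the line is flat and rho is -0.14, while ZNF395 stays lowest.

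When the trend of each library with GC content was removed, 12 of the 125 were called higher and 10 lower, against 9.87% and 10.8% of all genes tested, and the median log2 fold change was 0.02. Of the 21 genes that had risen 8 were still called higher, and of the 16 that had fallen 5 were still called lower. ZNF395 was then at -0.84, ZNF496 at -0.47, ZNF587B at 0.39, ZNF518A at 0.33 and ZNF776 at 0.32. ZNF787, named after its values were seen, changed sign, from -0.21 to 0.06, and 9 genes that had not been called were called.
The KRAB median fell to 0.06 with 24 of 36 above 0. By the edgeR test 2 were called higher and none lower, also none at an unadjusted p below 0.05. With the looser KRAB pattern 3 of 45 were called higher and 1 lower. The run from 19668796 to 23395560 then had a median of 0.15. The trend with GC content and RAC3 overexpression change between the same 2 sets of libraries, and their parts in these values cannot be told apart.

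**Figure D4:**
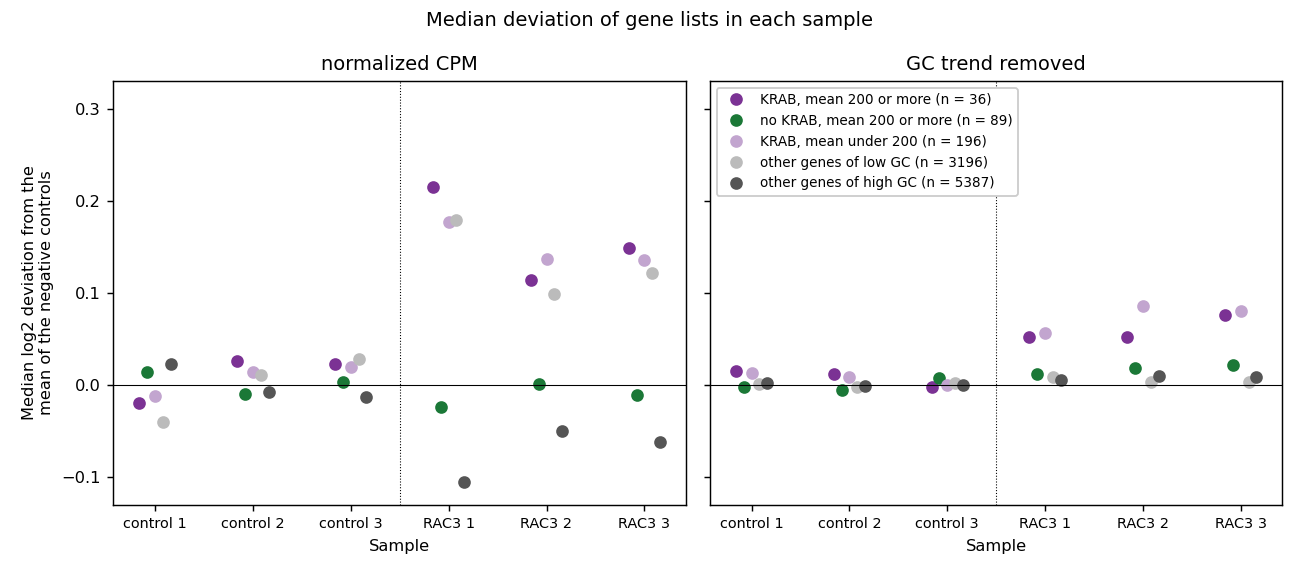
Each point is the median log2 deviation of a gene list from the mean of the negative controls in 1 sample (x axis), on CPM (left) and with the GC trend of each library removed (right). On the left the KRAB genes lie at 0.21, 0.11 and 0.15 in the RAC3 samples 1, 2 and 3 and other genes of low GC content at 0.18, 0.10 and 0.12, and on the right the KRAB genes lie at 0.05, 0.05 and 0.08.

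Sample by sample, the median deviation of the 36 KRAB genes from the mean of the controls was -0.02, 0.03 and 0.02 on the log2 scale in the controls and 0.21, 0.11 and 0.15 in the RAC3 samples. The 62 genes of low GC content gave -0.03, 0.02 and 0.03 in the controls and 0.24, 0.14 and 0.19 in the RAC3 samples, and the 63 of high GC content 0.03, -0.02 and -0.00 and then -0.15, -0.06 and -0.09. RAC3 sample 1 was the farthest from the controls in each of these lists, and also among the other genes of low and of high GC content. Without RAC3 sample 1, 13 of the 125 genes were called higher and 9 lower, and the share of all genes called in that fit is not given here. With the GC trend removed the KRAB genes lay at 0.02, 0.01 and -0.00 in the controls and at 0.05, 0.05 and 0.08 in the RAC3 samples. These groups did not overlap, which was not particular to KRAB genes. The 62 ZNF genes of low GC content, of which 25 are KRAB genes, lay at 0.0099 or less in the controls and at 0.054 to 0.070 in the RAC3 samples. The 3196 genes of low GC content outside the family lay at 0.0020 or less and at 0.0031 to 0.0091. The 89 ZNF genes without a KRAB box lay at 0.0080 or less in the controls and at 0.011 to 0.022 in the RAC3 samples. All genes tested lay at 0.0027 or less and at 0.0042 to 0.0067. For the 63 ZNF genes of high GC content the groups overlapped.

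By role, 14 of the genes work with RNA, ribosomes, the spindle or SUMO, and 4 of these were called higher by the edgeR test (28.6%, against 17.1% of all genes with a mean of 200 or more counts). None was lower by edgeR, DESeq2 or limma-voom, also not at an unadjusted p below 0.05, but with the GC trend removed 3 were called higher and 3 lower. ZNF638, an RNA-binding protein of nuclear speckles that also silences unintegrated retroviral DNA, had 53.9, 61.7 and 59.6 CPM in the controls and 72.9, 74.0 and 69.7 CPM in the RAC3 samples. The groups did not overlap, and the log2 fold change was 0.31 (SE 0.0619).
ZNF326, a part of the DBIRD complex that couples splicing to RNA polymerase II, rose from 25.97 ± 2.70 to 34.3 ± 2.32 CPM (SD, n = 3), a log2 fold change of 0.39. ZNF106, an RNA-binding protein, rose by 0.25 and ZNF451, a SUMO ligase, by 0.31 on the log2 scale. ZNF638 was at 0.16 and ZNF106 at 0.17 with the GC trend removed, both still called, while ZNF326 at 0.21 and ZNF451 at 0.14 were not.
ZNF207 (ENSG00000010244, chromosome 17 from 32350117 to 32381886), which carries BUB3 to kinetochores, had by far the highest level per length of the 125, a mean of 158.6 FPKM against a median of 7.05. It had 350.5, 357.0 and 346.3 CPM in the controls and 359.9, 355.9 and 357.1 CPM in the RAC3 samples. The groups overlapped and the log2 fold change was 0.03 (SE 0.0389), but with its low GC content of 36.9% it was at -0.15 and called lower once the GC trend was removed.
The next levels per length, ZNF593 at 43.8 FPKM, ZNF444 at 41.2, ZNF664 at 39.2 and ZNF768 at 39.1, lay close together, and those of ZNF593 ranged from 32.1 to 50.2 FPKM across the samples. ZNF593, a factor of the large ribosomal subunit, had a log2 fold change of -0.20 and was not called. ZNF622, which also acts on that subunit, was at -0.07, and ZNF598, a ubiquitin ligase for collided ribosomes, at -0.03, and neither was called, but with the GC trend removed ZNF598 was at 0.18 and called higher.

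Of 31 genes written down as transcriptional regulators, 4 were called higher (12.9%) and 7 lower (22.6%), against 17.1% and 18.9% of all genes with a mean of 200 or more counts, and with the GC trend removed 2 were called higher and 5 lower. ZNF644, a partner of the G9a and GLP histone methyltransferases, rose by 0.32 on the log2 scale, ZNF24, a SCAN domain protein, by 0.24 and ZNF146, which consists of fingers alone, by 0.22. These were at 0.15, 0.06 and 0.10 with the GC trend removed, and none of the 3 was called. ZNF335, a part of histone H3 lysine methyltransferase complexes, had 38.5, 32.6 and 34.6 CPM in the controls and 42.8, 41.9 and 40.6 CPM in the RAC3 samples. At a GC content of 61.1% it went against the direction of other genes of its composition, and its log2 fold change of 0.25 became 0.42 with the GC trend removed. Besides ZNF395, ZNF768 and ZNF581, the lower ones were ZNF444, ZNF282, ZNF428 and ZNF579, with log2 fold changes from -0.28 to -0.33, and the groups of ZNF579 overlapped. These 4 were at -0.03, -0.09, -0.16 and -0.06 with the GC trend removed and were no longer called. ZNF143, an activator of small nuclear RNA and many mRNA promoters, was at -0.09, and ZNF263, ZNF148, ZNF217 and ZNF281 were not called either. With the GC trend removed ZNF263 was called higher at 0.27, and ZNF217 and ZNF281 were called lower at -0.19 and -0.13.

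KRAB proteins act through shared partners, and 29 genes of such partners are given here, of which 5 were called higher (17.2%) and 6 lower (20.7%), near the 17.1% and 18.9% of all genes with a mean of 200 or more counts. TRIM28, the corepressor that KRAB binds, had 832.6, 809.3 and 809.5 CPM in the controls and 679.8, 749.5 and 746.9 CPM in the RAC3 samples. The groups did not overlap, the log2 fold change was -0.17 (SE 0.0415), and it was 0.03 with the GC trend removed, at a GC content of 63.7%.
CBX5, the HP1 alpha protein, had 436.7, 451.6 and 429.2 CPM in the controls and 377.7, 349.0 and 360.0 CPM in the RAC3 samples, a log2 fold change of -0.28 that became -0.39. CHD4 and MTA1, of the NuRD deacetylase complex, fell by 0.25 and 0.37, and SUMO2 and the DNA methyltransferase DNMT1 fell by 0.17 and 0.13 on the log2 scale.
The higher ones were SMARCAD1, a chromatin remodeller, at 0.38, ATF7IP, the stabilizing partner of SETDB1, at 0.30, the remodeller ATRX at 0.22, the HUSH subunit PPHLN1 at 0.22 and CBX3, another HP1 protein, at 0.15. SETDB1 itself was at -0.16 and was not called (adjusted p = 0.0922 by edgeR's quasi-likelihood F test, Benjamini-Hochberg adjusted). With the GC trend removed 2 of the 29 were called higher, SMARCAD1 and ATF7IP, and 6 lower, and TRIM28, DNMT1, ATRX, PPHLN1 and CBX3 were no longer called.

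**Figure D5:**
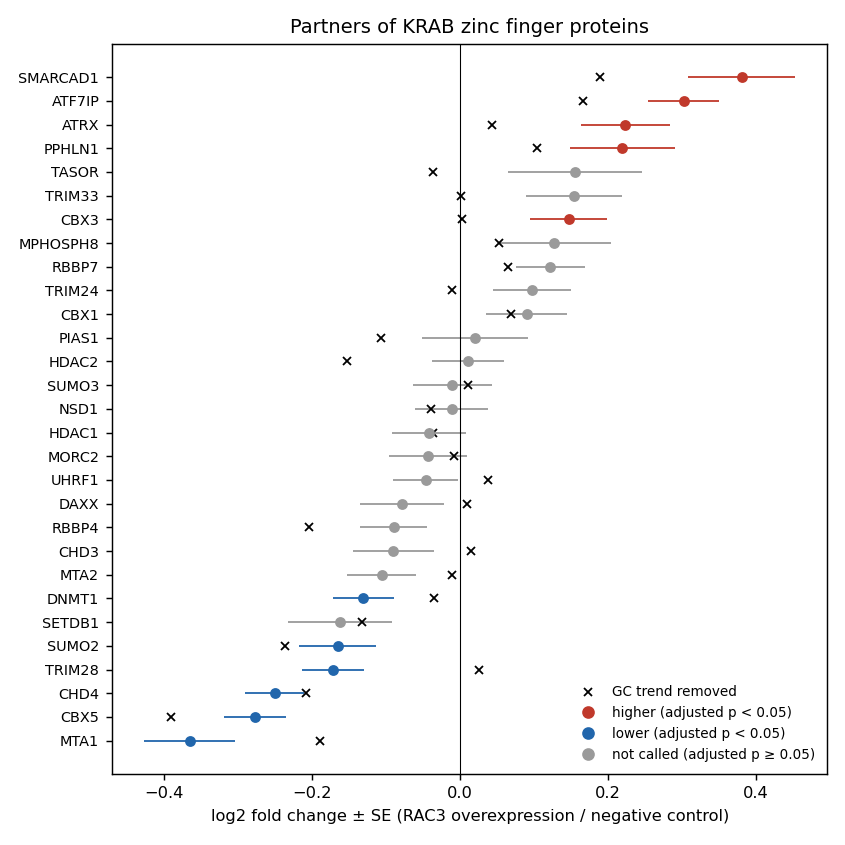
Points are log2 fold changes of 29 partner genes of KRAB proteins (x axis, RAC3 overexpression over negative control, bars are the standard error), red when called higher and blue when called lower, and crosses are the same values with the GC trend removed. TRIM28 moves from -0.17 to 0.03, while CBX5 moves from -0.28 to -0.39.

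Counting limits some of these values. In 13 of the 125 genes over 10% of the 75-base windows of the transcripts also occur in another annotated gene, with ZNF468, ZNF410 (83.4%), ZNF286A (62.4%), ZNF280D (43.9%) and ZNF395 the highest. An annotated gene overlaps 45 of the 125 on the same strand and 71 on the opposite strand, and the use of strand in the counting is not given in the sources used here, so reads of such partners could not be told apart.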

How the data were processed

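The authors deposited 1 table with raw counts per gene and sample and FPKM values (fragments scaled by gene length and library size) for 6 samples. The deposited counts are not normalized, and the FPKM values were made by the authors with gene lengths that are not given, whose implied value varied over samples (median coefficient of variation 4.50% for the ZNF genes, highest 48.3%). The submitters' processing notes name Bowtie2 2.2.8, HISAT2, StringTie 1.3.1 and DESeq2, but the role of each, the genome build and the strand setting are not given in the sources used here. Precision is limited by 3 samples per group.

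The members, gene lists and tests were chosen with earlier results of these data known. Samples were grouped by title. The fit used edgeR 4.0.16 in R 4.3.3 on all counts, with low genes dropped by filterByExpr, TMM scaling and the two-sided quasi-likelihood F test without covariates. P-values of the 12941 genes left were adjusted by Benjamini-Hochberg, and standard errors were derived from the log2 fold change and its F value. CPM are TMM-normalized. The steps were tested on simulated data. The biological coefficient of variation was 0.0533. Replicate numbers did not pair the samples, since deviations of same-numbered samples correlated at -0.09, -0.05 and -0.02 over 11221 genes.

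GC content, length and positions come from the longest coding transcript of each gene in GENCODE 29 (GRCh38). Proteins were translated from its coding sequences with Python 3.11.15, in place of the planned RefSeq protein table, which was not used here. Fingers were found by the pattern C-x(2,4)-C-x(12)-H-x(2,6)-H and the KRAB A box by 2 conserved stretches of residues, or by the first alone as a looser pattern. For the GC alternative the trend of each library against GC content (lowess, span 0.3) entered the fit as an offset, over 12863 genes with a value. Windows of 75 bases were compared among all annotated transcripts.

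Named were the 10 higher and 10 lower genes with the smallest p and groups that do not overlap, those past a fold change of 1.5, the 5 with the highest FPKM, the genes next to the count limit, members of the role groups and called partner genes. Alternatives were other scalings (DESeq2 size factors, upper quartile, library size), DESeq2 1.42.0, limma-voom (limma 3.58.1), limma on log2(FPKM + 0.1), other filters and count limits, removal of GC or length trends, a replicate block and leaving out each sample. Leaving out the RAC3 samples 2 and 3, the KRAB classes under every fit other than the looser pattern, and the GC classes were added after seeing the data. The authors' mean FPKM columns were not used, and 2 genes of the partner list are not reported here.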

Additional observations from a re-analysis of the deposited data

How the results depend on the processing

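Of 522 alternative values of the 29 ZNF genes followed one by one, 466 kept direction and call, 51 lost the call, 2 gained it and 3 reversed. Reversed were ZNF207 with the GC trend (-0.15) or the length trend (-0.055) removed and ZNF451 by limma on log2(FPKM + 0.1) (-0.017). With a replicate block 20 ZNF genes were called higher and 15 lower, and no call among the 29 changed. The counts of 21 higher and 16 lower became 39 higher with library size alone (all genes shift by 0.06 there), 12 and 10 with the GC trend removed, 11 and 6 on FPKM, 11 higher without the RAC3 samples 2 and 3, where the lone RAC3 sample is assumed to vary like the controls, 35 higher at a limit of 100 counts, and 11 and 10 at 500 counts, where fewer genes enter. Leaving out each sample gave 13 to 21 higher and 9 to 17 lower, with 13 and 9 without RAC3 sample 1 and 10 lower without control 1. Past a fold change of 1.5, 1 gene instead of 0 was higher on FPKM, without the RAC3 samples 2 and 3 and at 100 counts. The 1 lower gene became 2 with the length trend removed, 2 on FPKM, 3 at 100 counts, 4 without the RAC3 samples 2 and 3, and 1 to 3 with each sample left out, 3 without control 2 or RAC3 sample 2 and 2 without control 3 or RAC3 sample 3. The median of 0.06 became 0.11 with library size, 0.024 with GC and 0.038 with length removed, 0.089 on FPKM, 0.095 at 100 counts and -0.018 at 500 counts. For KRAB genes, the 7 higher became 16 with library size, 3 with the DESeq2 test, 2 with GC removed, 2 on FPKM, 1 without the RAC3 samples 2 and 3, and 4 to 7 with each sample left out, 4 without control 2, RAC3 sample 1 or RAC3 sample 3. The 1 lower became 2 with a filter of 1 count in any sample, 0 with GC removed, on FPKM or without the RAC3 samples 2 and 3, 4 with the looser pattern, and 1 to 3 with each sample left out, 3 without control 3 and 2 without RAC3 sample 3. The KRAB median of 0.15 became 0.21, 0.058, 0.22 and 0.22 with library size, GC removed, on FPKM and without the RAC3 samples 2 and 3. For the others, 14 higher became 23 with library size, 9 on FPKM and 9 to 15 with each sample left out (9 without RAC3 sample 1), 15 lower became 6 on FPKM and 8 to 14 (9 without control 1, 8 without RAC3 sample 1), and the median of -0.01 became 0.041, 0.031 and -0.00037 with library size, on FPKM and with GC removed, and -0.039 to 0.0050 with each sample left out, above 0 only without control 1. The cause of these changes was not tested beyond the removal of the trends. Among the other fits, a share of all genes called is given only for the one with the GC trend removed. The counts of the rest show how the calls move and are not read against a background. Calls were more frequent at higher depth, with 24.4% higher and 22.2% lower among the 45 genes with a mean of 500 or more counts, against 16.8% and 12.8% of all 125.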

Other observations

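Zinc finger genes outside the ZNF symbols, given as values only, also moved in both directions, and their calls stand against 13.3% higher and 15.3% lower of all genes tested. Of 13 KLF genes, regulators with 3 fingers, 3 were called higher (23.1%) and 1 lower (7.69%) by edgeR's quasi-likelihood test. KLF4, KLF6 and KLF9 rose, KLF4 from 13.8, 15.7 and 16.8 CPM in the negative controls to 28.7, 22.9 and 27.4 CPM in the RAC3 samples, with log2 fold changes of 0.76, 0.49 and 0.44, and these were 0.85, 0.45 and 0.40 with the GC trend removed. KLF16 fell by 0.30 on the log2 scale and was at -0.05 with the GC trend removed. Of 38 genes of the ZBTB family, which pair fingers with a BTB domain, 4 were called higher (10.5%) and 3 lower (7.89%), with ZBTB20 at 0.34 and ZBTB4 at -0.35. None of the 15 ZSCAN or 7 ZKSCAN genes was called by edgeR, DESeq2 or limma-voom, and 1 ZSCAN and 0 ZKSCAN genes had an unadjusted p below 0.05 by edgeR. Of 14 ZFP genes 1 was called in each direction, ZFP91 at 0.22 and ZFP36 at -0.28, and of 6 SP genes SP3 was called at 0.18 and SP5 at -0.43. With the GC trend removed ZFP36, SP3 and SP5 were no longer called. SP1 at -0.18 and ZBTB26 at -0.45 were then called lower, and KLF2 at 0.56 was called higher. Of the KLF genes 4 were then called higher and 0 lower, and of the ZBTB genes 2 higher and 2 lower. These genes were named after their values were seen.

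RefSeq promoters (GRCh38.p14, 250 bases before to 50 after a start) were matched for 105 of the 125 ZNF genes. The box GGGCGG, searched on both strands, was found in 75.2% of these against 48.3% of all genes of the promoter table, and CCAAT in 56.7% of the 30 KRAB genes, 33.3% of the 75 others and 39.7% of all. ACTACAA, a part of the ZNF143 site, was found in 7.62% against 3.43%, and AACAAT, the core read by SOX factors, in 7.62% against 12.2%. Of the remaining motifs, ACGTG was found in 31.4% against 24.9% and GCCATC in 20% against 15.4%. The median GC content of the promoters was 63.7% for the 105 genes and 58.3% for all 27305 genes of the promoter table, which were not chosen by their counts. A gene was taken to hold a motif when any of its starts did. The part of GC content and of the number of starts in these shares was not tested. A match of letters is a description and no test was made.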
